A study of Homo sapiens with 4 samples.

Results

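PHGDH, PSAT1, PSPH, SHMT1, SHMT2, MTHFD1, MTHFD2, MTHFD1L and TYMS encode enzymes that make serine and pass its one-carbon units on through folate. These 9 genes, of 17665 with at least 1 read over an annotated intron, were picked as a pathway because PHGDH carries an unannotated acceptor (the 3′ end of an intron) in intron 6. The pathway was chosen by the share of PHGDH reads at this acceptor in SF3B1 K700E and WT libraries, so the PHGDH values below are a description and carry no test. The other 8 genes were tested, in fits over all genes or junctions.

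RNA bound to chromatin, which is enriched for transcripts still being made, was sequenced from 4 libraries of K562 cells. The tested genotype was SF3B1 K700E with 2 libraries, and the comparison genotype was wild type (WT) with 2 libraries, all harvested on day 4. For all 4 libraries the RNA was isolated in α-amanitin at 25 µM, which stops RNA polymerase II. The labels share 1 treatment text for all 4 samples, in which doxycycline at 1 µg/ml induces the modified allele, and they do not say whether the WT cells carried such an allele. SF3B1 is the U2 snRNP subunit that helps select the branch point ahead of an acceptor, and K700E is a recurrent substitution in blood cancers that is known for opening acceptors a short way upstream of the annotated ones. The labels do not say that replicates came from separate cultures or clones, so p-values measure only the spread between these libraries, which may be technical.

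Serine is made from the glycolytic intermediate 3-phosphoglycerate in 3 steps, catalysed by PHGDH, PSAT1 and PSPH in that order. SHMT1 in the cytosol and SHMT2 in mitochondria split serine into glycine and a one-carbon unit on tetrahydrofolate. MTHFD1 in the cytosol and MTHFD2 and MTHFD1L in mitochondria interconvert the folate-bound forms, and TYMS uses 1 of them to make thymidylate for DNA. Dividing leukemia cells such as K562 draw on the pathway for nucleotides.

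The libraries held 4297393 and 5313934 uniquely mapped reads over splice junctions in SF3B1 K700E, against 3576184 and 3680968 in WT. All 10 erythroid markers had reads in these libraries, with a summed level of 308.3 and 496.8 CPM (reads scaled to library size) in SF3B1 K700E and of 411.1 and 443.7 CPM in WT. The labels call the cells epithelial, and 6 of 8 epithelial markers had reads, at a summed 348.4 and 443.2 CPM in SF3B1 K700E against 483.2 and 371 CPM in WT, with CDH1 and KRT5 at 0. Of 6 lymphoid markers 4 had reads, at a summed 1768 and 1532 CPM in SF3B1 K700E against 901.6 and 1203 CPM in WT, nearly all from PTPRC, while the B-cell genes MS4A1 and CD79A were at 0. The part of this difference in the results below was not tested. SF3B1 itself stood at 845.4 and 701.9 CPM in SF3B1 K700E against 896.7 and 1016 CPM in WT (log2 change -0.31, SE 0.22, edgeR adjusted p = 0.747), and junction reads do not read the substituted codon.

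The PHGDH sequences that the new junctions join are shown first because they place the shifted stop codons. They come from GENCODE 29 transcripts on GRCh38, each 30 nt on the plus strand from 5′ to 3′. The first is the end of exon 6 with the start of intron 6 (chr1:119734752-119734781, with the GT of the donor, the 5′ end of the intron, in capitals), read from the transcript ENST00000641570.1, which runs on into the intron. The other is the start of exon 7 (chr1:119735295-119735324, with a stop codon in a shifted frame in capitals).
PHGDH exon 6 donor: tgccctccacgacagGTaggtgtgtcctta
PHGDH exon 7 start: gcttgcTGAatgacaacacctttgcccagt

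PHGDH (chromosome 1, 119648411 to 119744226, plus strand) catalyses the first step of serine synthesis. In its reference transcript ENST00000641023.1, which has 11 introns, intron 6 is 528 nt long (chromosome 1, 119734767 to 119735294). The new junction kept the exon 6 donor and ended at 119735106, a 340-nt intron that leaves 188 nt of intron sequence in front of exon 7. Of the reads leaving the exon 6 donor, 20 of 63 and 40 of 109 went to the new acceptor in SF3B1 K700E, against 0 of 101 and 0 of 72 in WT.

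These reads made up 31.75% (95% Wilson interval 21.59 to 44) and 36.7% (28.25 to 46.05) of donor reads in SF3B1 K700E, 34.22% ± 3.501 (SD, n = 2). In WT the share was 0 in both libraries, which allows up to 2.97% and 4.167%, or 1.734% over the 173 reads of both. The groups lay far apart in this share, by which the pathway was chosen, and both SF3B1 K700E libraries gave nearly the same share. The longest read overhang across the junction was 74 nt in each SF3B1 K700E library. These intervals and limits cover counting error only.

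The added 188 nt leave a remainder of 2 when divided by 3 and so shift the reading frame. In the shifted frame, exon 7 reads a TGA stop 6 nt after its start, marked in the sequence above, unless the added bases, which were not read, hold an earlier one. The reference frame ends at a TAA in exon 12. Whether such transcripts were exported or degraded was not analysed here.

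PHGDH also had an unannotated donor 13 nt upstream of the annotated one at the end of exon 9. Its GT lies inside exon 9 (chr1:119740489-119740518, in capitals), and the frame without the 13 nt meets a TGA in exon 10 (chr1:119741767-119741796, in capitals), 9 nt after the junction.
PHGDH exon 9 end: ccaaagggaccatccagGTgataacacagg
PHGDH exon 10 start: gaacatcccTGAagaatgctgggaactgcc

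Of the reads arriving at exon 10, 7 of 54 and 3 of 60 came from this donor in SF3B1 K700E, against 0 of 58 and 1 of 56 in WT. The shares were 12.96% and 5% in SF3B1 K700E and 0 and 1.786% in WT. Both SF3B1 K700E libraries lay above both WT libraries, but the 2 SF3B1 K700E shares differ from each other by more than the lower one differs from WT, and the counts are small. PHGDH has an annotated alternative exon in intron 5. The exon 5 donor went to it in 13.21% and 20% of reads in SF3B1 K700E and in 11.11% of reads in each WT library. On the exit side of that exon, 20.69% and 31.94% of reads in SF3B1 K700E and 28.79% and 21.57% in WT reached exon 6 from it, and the groups overlapped.

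**Figure D1:**
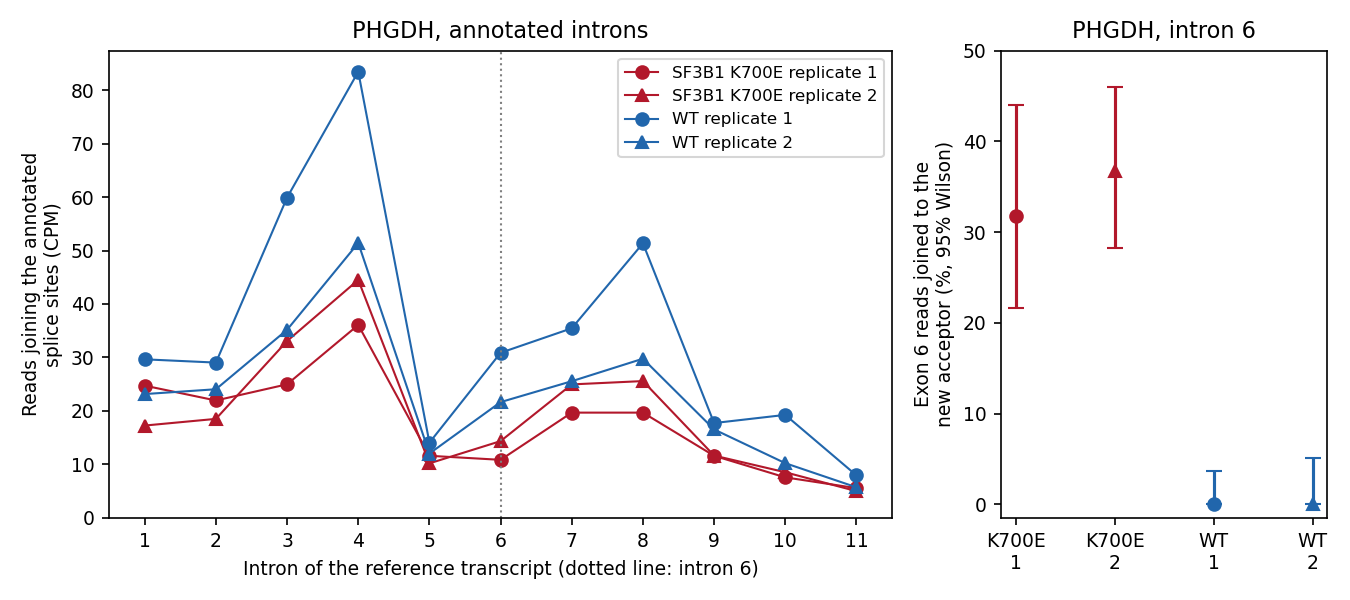
Left, CPM of reads joining the annotated splice sites of each of the 11 PHGDH introns, 1 line per library; right, share of exon 6 donor reads that joined the new intron 6 acceptor, in percent with 95% Wilson intervals, 2 SF3B1 K700E libraries left of 2 WT libraries. At intron 6 the annotated junction had 10.8 and 14.3 CPM in SF3B1 K700E and 30.9 and 21.6 CPM in WT, and the new acceptor took 31.75% and 36.7% of reads in SF3B1 K700E and 0 in WT.

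PHGDH spliced reads were lower along the gene and not at intron 6 alone, as the plot of PHGDH introns shows. At intron 1 the groups overlapped, at 24.7 and 17.3 CPM in SF3B1 K700E against 29.6 and 23.1 CPM in WT. The total over annotated introns was 204.6 and 226.9 CPM in SF3B1 K700E, against 393.4 and 268.8 CPM in WT. The means were 215.7 ± 15.76 CPM in SF3B1 K700E and 331.1 ± 88.1 CPM in WT (SD, n = 2 each), a ratio of 0.652. Both SF3B1 K700E libraries lay below both WT libraries, as for 20.1% of all genes. The WT libraries differed from each other by more than the lower of them differed from SF3B1 K700E. Fewer transcripts and fewer spliced reads per transcript cannot be told apart in these counts.

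Upstream of the new acceptor, introns 1 to 5 of PHGDH summed to 119.3 and 123.5 CPM in SF3B1 K700E against 216.1 and 145.8 CPM in WT. Downstream of it, introns 7 to 11 summed to 64.08 and 75.7 CPM in SF3B1 K700E against 131.7 and 87.79 CPM in WT. The ratio of downstream to upstream reads was 0.537 and 0.613 in SF3B1 K700E and 0.61 and 0.602 in WT. The ratios overlapped, so the lower level was present ahead of the new acceptor as well as after it.

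PSAT1 (chromosome 9, 78297143 to 78330093), the aminotransferase of the second step, had 120.8 and 107.5 CPM in SF3B1 K700E against 116.8 and 143.1 CPM in WT. The groups overlapped, and the log2 change was -0.19 (SE 0.23, edgeR adjusted p = 0.894). PSAT1 was spliced almost entirely at reference introns: 477 and 516 reads in SF3B1 K700E and 381 and 475 in WT joined them, whereas unannotated junctions held 0 and 8 reads in SF3B1 K700E and 2 and 1 in WT.

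PSPH (chromosome 7, 56011051 to 56051604), the phosphatase that releases serine, differed between the 2 SF3B1 K700E libraries, at 26.74 and 50.74 CPM, against 44.62 and 38.78 CPM in WT. Its log2 change of -0.10 (SE 0.33, edgeR adjusted p = 0.977) turned positive without SF3B1 K700E replicate 1 (0.29) or without WT replicate 1 (0.01). An annotated alternative donor of intron 2 supplied 4 of 10 and 6 of 35 acceptor reads in SF3B1 K700E, against 3 of 26 and 3 of 23 in WT. This was 40% and 17.14% in SF3B1 K700E against 11.54% and 13.04% in WT, and it did not pass (unadjusted p = 0.326, edgeR adjusted p = 1). Leaving out SF3B1 K700E replicate 1 gave a difference in share of 4.852 points in place of 16.28, and leaving out replicate 2 gave 27.71.

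The serine hydroxymethyltransferases had very different levels. Levels per intron are medians over the reference introns of a gene, which does not add up more introns in longer genes. They can still depend on where introns lie, since reads changed along genes to different degrees. In SF3B1 K700E the ratio of last to first introns was 0.578 and 0.585 in MTHFD1L and 1.27 and 1.09 in MTHFD2. SHMT2 had a median of 15.1 ± 0.441 CPM in SF3B1 K700E and 14.6 ± 1.03 CPM in WT. SHMT1 had 1.51 ± 0.366 CPM in SF3B1 K700E and 1.06 ± 0.655 CPM in WT (SD, n = 2 each), the lowest level of the 9 genes.

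In gene totals, SHMT2 (chromosome 12, 57229327 to 57234935) had 165.7 and 160.8 CPM in SF3B1 K700E against 179.4 and 191.8 CPM in WT. Both SF3B1 K700E libraries were lower, by a log2 change of -0.19 that did not pass (SE 0.22, edgeR adjusted p = 0.876). SHMT1 (chromosome 17, 18327860 to 18363563) had 23.71 and 12.69 CPM in SF3B1 K700E against 18.95 and 13.53 CPM in WT, overlapping groups with a log2 change of 0.16 (SE 0.38, edgeR adjusted p = 0.962) that was -0.35 without SF3B1 K700E replicate 1 and -0.05 without WT replicate 2. The ratio of the last 5 to the first 5 introns of SHMT2 was 0.844 and 0.77 in SF3B1 K700E against 0.612 and 0.584 in WT. That ratio was higher in both SF3B1 K700E libraries, a description chosen after its values were seen. An annotated junction that skips the 80-nt exon 3 of SHMT2 took 16.67% and 11.3% of donor reads in SF3B1 K700E and 12.36% and 9.195% in WT, with overlapping groups.

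Among the folate enzymes, MTHFD1 (chromosome 14, 64388031 to 64463457), the trifunctional cytosolic enzyme, had 494.7 and 393.5 CPM in SF3B1 K700E against 351.5 and 360.8 CPM in WT. Both SF3B1 K700E libraries were higher, with the largest log2 change of the 8 genes, 0.32 (SE 0.22, edgeR adjusted p = 0.734). MTHFD2 (chromosome 2, 74198562 to 74217565), the mitochondrial dehydrogenase and cyclohydrolase, was also higher in both, at 224.5 and 208.6 CPM in SF3B1 K700E against 169.9 and 203.5 CPM in WT (log2 change 0.21, SE 0.22, edgeR adjusted p = 0.861). MTHFD1L (chromosome 6, 150865549 to 151101887), the mitochondrial formate-producing synthetase, had 518.7 and 404.9 CPM in SF3B1 K700E against 430.3 and 359 CPM in WT, and its groups overlapped (log2 change 0.23, SE 0.23, edgeR adjusted p = 0.857).

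TYMS (chromosome 18, 657604 to 673578) varied least between libraries of the 9 genes, at 99.15 and 102.3 CPM in SF3B1 K700E against 100.9 and 100.4 CPM in WT. Its log2 change was 0.00 (SE 0.23, edgeR adjusted p = 1). Its unannotated junctions held 6 and 1 reads in SF3B1 K700E and 0 and 0 in WT, too few to compare.

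**Figure D2:**
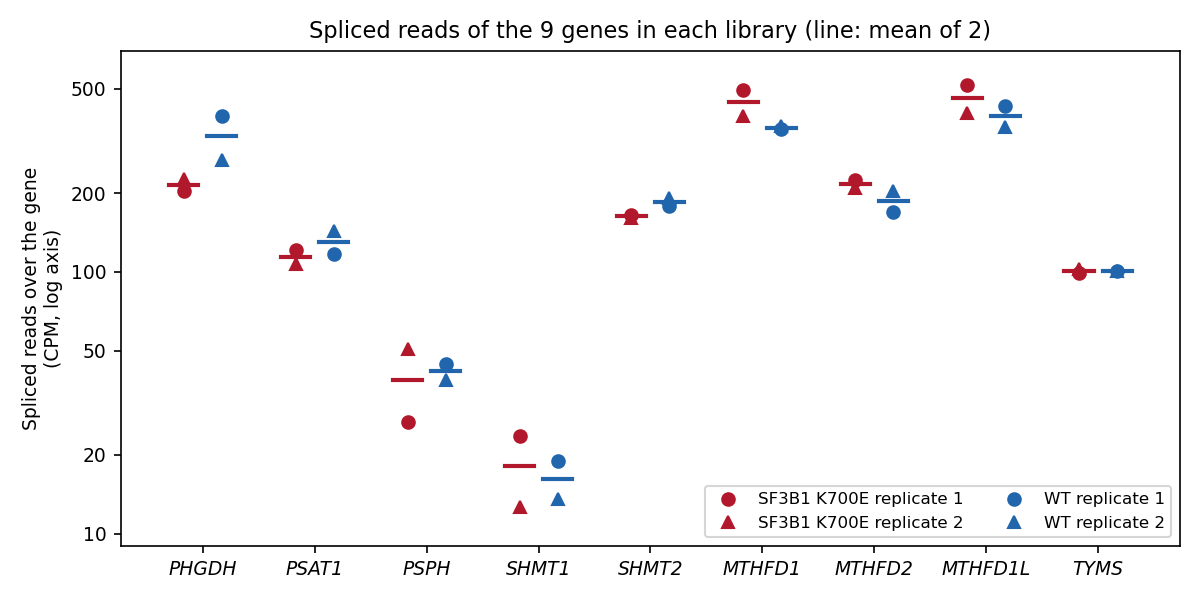
Spliced reads over annotated introns of each gene in CPM on a log axis, 1 point per library and a line at the mean of 2, SF3B1 K700E left of WT. PHGDH is the gene with the widest gap between the groups, and TYMS sits near 100.7 CPM in SF3B1 K700E and 100.6 CPM in WT.

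Gene totals of the 8 tested genes did not pass. Of them, 0 passed edgeR's quasi-likelihood test in either direction, 0 had an unadjusted p under 0.05, and 0 passed in DESeq2. Over all 10827 genes tested the same test called 0.933%, with 36 higher and 65 lower, and without SF3B1 K700E replicate 2 it called 0 of all genes. Of the 8 genes, 2 were higher in both SF3B1 K700E libraries and 1 was lower in both, against 19.4% and 20.1% of all genes. Groups thus did not overlap for 37.5% of the 8 genes, near the 39.5% of all genes. The median log2 change was 0.08 over the 8 genes and 0.00 over all genes.

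Per intron, the order of the genes in SF3B1 K700E ran from MTHFD2 at 33.4 ± 1.32 CPM through PHGDH at 18.5 ± 1.71 CPM, MTHFD1L at 16.6 ± 2.91 CPM, TYMS at 15.6 ± 0.856 CPM, MTHFD1 at 15.6 ± 2.93 CPM, SHMT2 and PSAT1 at 13.3 ± 2.54 CPM to PSPH at 4.47 ± 1.33 CPM and SHMT1. In WT, MTHFD2 stood at 26.6 ± 5.26 CPM and PHGDH at 26.4 ± 4.59 CPM, so the 2 did not differ beyond their spread. Neighbours in the order from PHGDH to PSAT1 did not differ beyond their spread in SF3B1 K700E. MTHFD2 had the most spliced reads per intron in SF3B1 K700E.

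Splice-site use in the 8 genes was tested over all junctions. Of their 19 acceptor junctions, which share a donor with another junction, 0 were called by edgeR's diffSpliceDGE and 0 by limma voom, and at an unadjusted p under 0.05 there was 1 higher and 0 lower. Over all 23366 such junctions 0.137% were called, 0.133% higher in SF3B1 K700E and 0.00428% lower. Of 16 donor junctions, which share an acceptor, 0 were called by edgeR or limma voom and 1 was higher at an unadjusted p under 0.05. Over all 22976 donor junctions 0.0087% were called, 0.00435% higher and 0.00435% lower.

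The acceptor junction with the lowest p lay in MTHFD1. It joined the exon 6 donor to the exon 9 acceptor (chromosome 14, 64415740 to 64424803) and skipped 2 exons of 249 nt together, which keeps the frame. It held 8 of 84 and 3 of 83 donor reads in SF3B1 K700E, against 1 of 66 and 0 of 48 in WT. The mean share was 6.569% ± 4.179 in SF3B1 K700E and 0.7576% ± 1.071 in WT (SD, n = 2 each; unadjusted p = 0.0434, edgeR adjusted p = 1).

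The donor junction with the lowest p was an unannotated donor inside intron 13 of MTHFD1L (chromosome 6, 150943052 to 150944485). It supplied 3 of 91 and 8 of 97 acceptor reads in SF3B1 K700E, 3.297% and 8.247%, against 0 of 72 and 0 of 62 in WT, which allows up to 2.239% over both WT libraries. The unadjusted p was 0.00447 and the edgeR adjusted p was 1. In SF3B1 K700E, 2 and 2 reads entered a 115-nt exon ending there and 1 and 1 a 105-nt form, against 0 in WT. Of the 9 unannotated junctions of the 9 genes with at least 10 reads, this donor and the PHGDH intron 6 acceptor were the 2 with 0 WT reads. Both reached 10 reads through SF3B1 K700E alone, whose libraries were deeper, and PHGDH was chosen by its acceptor. The same count over all genes is not given, so this one is a description only.

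The other named junctions were lower in SF3B1 K700E on average. A new acceptor in MTHFD1L intron 11 took 7.042% and 3.03% of donor reads in SF3B1 K700E and 7.937% and 12.96% in WT (difference -5.413 percentage points). The difference was -2.9 points without WT replicate 2 and -3.407 points without SF3B1 K700E replicate 2. An unannotated donor in MTHFD2 intron 1 (chromosome 2, 74201480 to 74205704) supplied 20% and 21.74% of the reads arriving at exon 2 in SF3B1 K700E and 34.04% and 17.5% in WT. These were 12 and 15 reads in SF3B1 K700E and 16 and 7 in WT. Fewer reads entered a 98-nt exon ending at this donor (74201382 to 74201479), 4 and 5 in SF3B1 K700E and 4 and 2 in WT. Where the other reads from this donor began was not tested. The MTHFD2 difference of -4.902 points was 3.37 points without WT replicate 1 and -13.17 points without WT replicate 2. Some junctions with fewer reads had reads in both libraries of 1 group only, in either direction. An annotated alternative acceptor of PSPH intron 2 had 2 of 9 and 3 of 33 donor reads in SF3B1 K700E against 0 of 26 and 0 of 20 in WT. An annotated alternative donor of PHGDH intron 10 had 0 and 0 reads in SF3B1 K700E against 2 and 1 in WT. Such junctions were too sparse to test, neither direction was counted, and the SF3B1 K700E libraries were deeper.

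MTHFD1L also uses 2 annotated acceptors 3 nt apart at exon 7, shown because acceptor choice is the step K700E is known to affect. The 3 bases between them are in capitals (chr6:150887842-150887871).
MTHFD1L exon 7 start: TAGgtgtcaacctagatggaaagaagattt

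The upstream acceptor of this pair took 58.54% and 51.85% of donor reads in SF3B1 K700E and 46% and 62.5% in WT. The means were 55.19% ± 4.727 in SF3B1 K700E and 54.25% ± 11.67 in WT (SD, n = 2 each), and the groups overlapped.

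**Figure D3:**
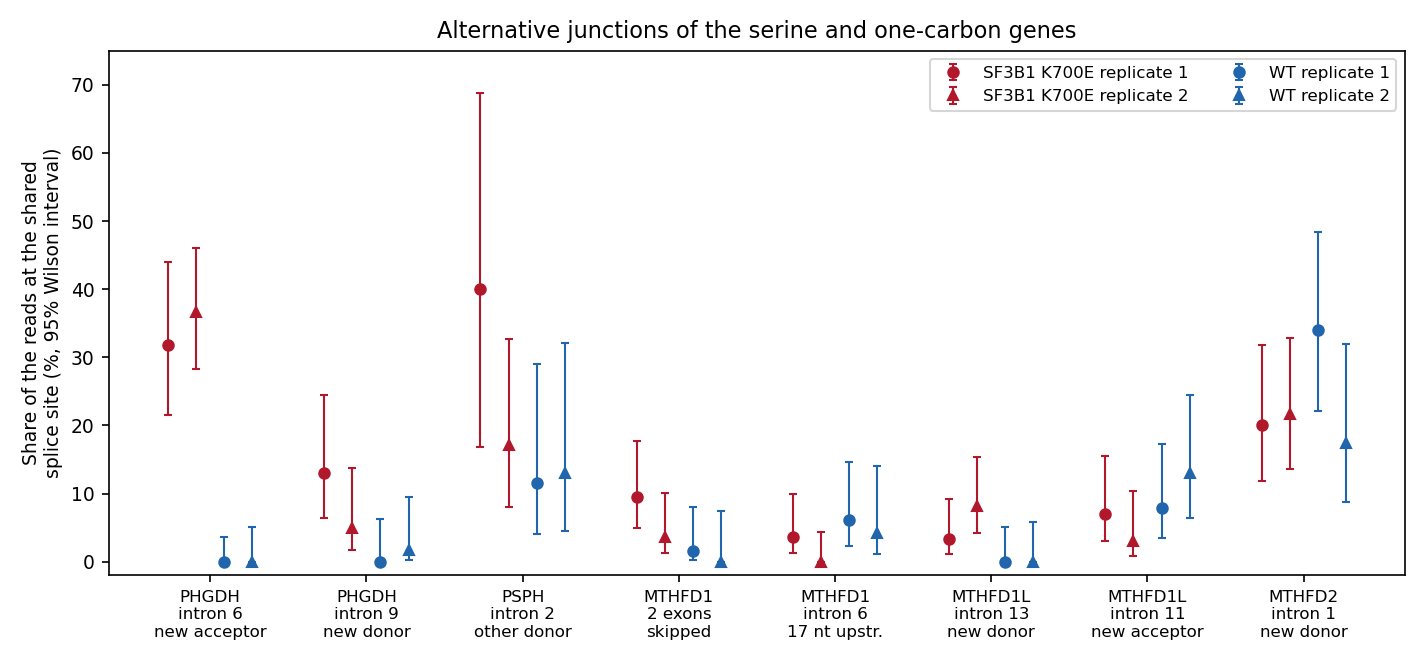
Share of reads at the shared splice site taken by 8 alternative junctions, in percent with 95% Wilson intervals, 1 point per library, 2 SF3B1 K700E points left of 2 WT points. The PHGDH intron 6 acceptor had 31.75% and 36.7% in SF3B1 K700E against 0 and 0 in WT. PHGDH was chosen by this share, so its gap is a description and carries no test. At each other junction, intervals of SF3B1 K700E and WT overlap for at least 1 pair of libraries. The intervals cover counting error only.

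Acceptors 10 to 30 nt upstream of an annotated one, the distance known for SF3B1 mutants, were rare in these genes, as in all genes. Of 105 reference introns with at least 20 SF3B1 K700E reads, 4 (3.81%) had any unannotated read in that window, against 3.6% of 87630 introns of all genes. The count over all genes took the most used annotated acceptor of each donor in place of a reference transcript. The 4 acceptors lay in SHMT2, MTHFD2 and, with 2, MTHFD1, and they held 8 reads in SF3B1 K700E and 6 in WT. The one with the most reads, 17 nt upstream of MTHFD1 exon 7, had 3 of 84 and 0 of 83 donor reads in SF3B1 K700E and 4 of 66 and 2 of 48 in WT, so it was not higher in SF3B1 K700E. That acceptor held all of the WT reads. The acceptor in MTHFD1 intron 17 had 1 of 48 and 2 of 53 donor reads in SF3B1 K700E against 0 of 34 and 0 of 46 in WT. Those in SHMT2 (0 and 1 reads in SF3B1 K700E) and MTHFD2 (1 and 0) also had 0 reads in WT. These counts are too small to compare. The PHGDH acceptor at 188 nt lies outside the window.

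Reads over unannotated junctions made up 2.116% and 2.243% of all junction reads of the 9 genes in SF3B1 K700E, against 1.484% and 0.9046% in WT. The means were 2.18% ± 0.08953 in SF3B1 K700E and 1.194% ± 0.4098 in WT (SD, n = 2 each). Without PHGDH the shares were 1.921% and 1.897% in SF3B1 K700E and 1.744% and 1.054% in WT, a difference of 0.5104 points in place of 0.9852. Over all genes they were 3.37% and 3.062% in SF3B1 K700E and 2.871% and 2.898% in WT. In each of these sets both SF3B1 K700E libraries lay above both WT libraries, and 2 against 2 libraries allow no exact permutation p under 0.33 (2-sided). The 9 genes had 58 new acceptors, 43 new donors and 38 new pairings of annotated sites, and 72 of these 139 junctions rested on 1 read.

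The PHGDH acceptor was set beside the 64 unannotated acceptors of other genes that had 0 reads in WT, at least 10 reads in SF3B1 K700E and at least 60 donor reads in each group. Of these, 1 had a higher mean share in SF3B1 K700E, and their median was 8.215%. PHGDH was chosen by this share, and the 64 passed the read minimum through SF3B1 K700E alone. The rank is therefore a description and carries no test, and acceptors with reads in WT only are not given here. Likeness was the summed absolute difference of share over the 2 SF3B1 K700E libraries. The nearest was in RDX, a membrane-cytoskeleton linker, with 50% and 34.21% in SF3B1 K700E. EML3 had 19.35% and 23.53%, TNPO3 22.5% and 20%, SRSF4 28.17% and 12.96% and TPR 23.08% and 15.38% in SF3B1 K700E. The RDX, EML3, TNPO3 and TPR acceptors lay 14 to 21 nt upstream of the annotated one, whereas PHGDH's lay 188 nt and SRSF4's 4854 nt upstream. Of the 64, 32 lay 10 to 30 nt upstream and 24 more than 100 nt.

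Of 54 further pathway genes 45 were tested, and 0 passed edgeR's test or DESeq2 in either direction. At an unadjusted p under 0.05, 1 was higher and 1 lower. Groups did not overlap for 33.3% of them, against 39.5% of all genes, and the median log2 change was 0.02. Counted by direction, 7 were higher in both SF3B1 K700E libraries and 8 lower in both, beside the 19.4% and 20.1% of all genes. In the folate cycle 2 of 10 tested genes were higher in both and 0 lower. In the methionine cycle and transsulfuration list 2 of 9 were higher and 2 lower, and among 6 purine synthesis genes 1 was higher and 2 lower. Of 8 genes of glycine and serine use 1 was higher and 1 lower, and of 7 serine and glycine transporters likewise 1 and 1. Of 4 thymidylate partners 0 were higher and 2, TK1 and DTYMK, lower in both.

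The genes at the ends of this list had the following values. SLC19A1, the reduced folate carrier, had 18.92 and 9.774 CPM in SF3B1 K700E against 8.558 and 5.111 CPM in WT (log2 change 1.06, SE 0.46, edgeR adjusted p = 0.464). MTFMT, which formylates the mitochondrial initiator tRNA, had 16.4 and 8.942 CPM in SF3B1 K700E against 5.502 and 10.22 CPM in WT. SLC38A2, a neutral amino acid transporter, had 684.7 and 682.1 CPM in SF3B1 K700E against 372.3 and 579.6 CPM in WT (log2 change 0.52, edgeR adjusted p = 0.538).

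At the low end, PTDSS2, which exchanges serine into phosphatidylserine, had 32.29 and 35.98 CPM in SF3B1 K700E against 66.32 and 53.51 CPM in WT (log2 change -0.81, SE 0.26, edgeR adjusted p = 0.26). MTRR, the reductase that keeps methionine synthase active, had 60.04 and 39.3 CPM in SF3B1 K700E against 69.07 and 73.66 CPM in WT (log2 change -0.53, edgeR adjusted p = 0.609). SRR, serine racemase, had 5.046 and 1.664 CPM in SF3B1 K700E against 4.89 and 4.81 CPM in WT, and its log2 change of -0.56 was 0.07 without SF3B1 K700E replicate 2. ATF4, the transcription factor known to drive PHGDH, PSAT1, PSPH, SHMT2 and MTHFD2, had 95.11 and 127.1 CPM in SF3B1 K700E against 107.6 and 81.47 CPM in WT, with overlapping groups.

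**Figure D4:**
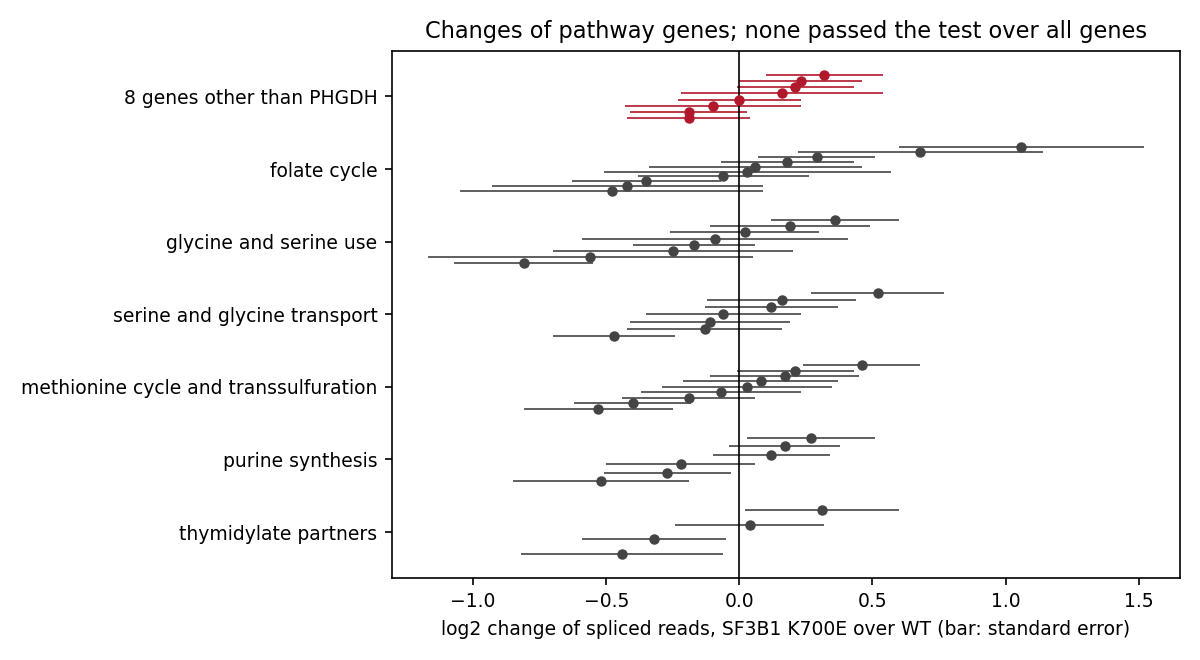
Log2 change of spliced reads, SF3B1 K700E over WT, with its standard error, for the 8 genes other than PHGDH (top row) and the tested genes of 6 pathway lists. The 8 genes lie between -0.19 and 0.32, and the pathway genes between -0.81 for PTDSS2 and 1.06 for SLC19A1.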

How the data were processed

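According to the STAR logs that were deposited, the authors used STAR 2.7.10a to align reads to GRCh38.p12 in a single pass, with GENCODE 27 junctions in the index and GENCODE 22 added at mapping. The deposited files give counts of uniquely and multiply mapped reads per splice junction, without normalization, and the authors' files used here hold spliced reads only. Per the labels' protocols, the RNA was chromatin-bound and isolated in α-amanitin, which stops RNA polymerase II, depleted of polyadenylated and ribosomal RNA, and made into libraries with a SMARTer low-input kit. Strand came from the splice motif, which separates TYMS from genes on the other strand.

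Unique reads were assigned through GENCODE 29, which holds 99.7% of the 188468 annotated junctions. Introns of several genes, 3.98% of reads, were left out. Multiply mapped reads numbered 0 to 8 per member and library. Whether unique reads were gained from or lost to near copies was not tested. CPM are library-scaled by TMM. Gene totals were tested with edgeR 4.0.16 in R 4.3.3 (quasi-likelihood test, filterByExpr, Benjamini-Hochberg at 0.05), and junction use with diffSpliceDGE on junctions of at least 10 reads in clusters of at least 2. The SE is the absolute log2 change over the square root of F. DESeq2 1.42.0, limma 3.58.1, RLE scaling, other read and overhang minimums, multiply mapped reads, a replicate block and leaving out each library were alternatives, and all steps were tested on simulated data. Depth was 3576184 to 5313934 reads per library, and the biological coefficient of variation was 21.7%.

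Members and lists were chosen with earlier results of these data known. Named were all 9 members, pathway genes that passed or otherwise the 3 highest and 3 lowest log2 changes, and, of the 8 genes, the 5 alternative junctions (other than reference introns) with the largest share differences among those of at least 10 reads whose shared site had at least 20 reads in each group. The SHMT2 intron ratio and exon skip, the MTHFD1L acceptor pair, the MTHFD1 acceptor 17 nt upstream and ATF4 were named after their values were seen. So were the PHGDH intron 9 donor, intron 5 exon and intron 10 donor, and the PSPH intron 2 acceptor.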

Additional observations from a re-analysis of the deposited data

How the results depend on the processing

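PHGDH was not tested. Of the other 8 genes and their junctions, and of the pathway genes, 0 were called in any alternative run. Over all genes, the 36 higher and 65 lower calls became 63 and 154 with DESeq2, 51 and 85 with the replicate block, and 0 to 98 higher and 0 to 227 lower when 1 library was left out, with 0 and 0 without SF3B1 K700E replicate 2. Deviations of same-numbered libraries from their groups had a correlation of -0.207 over genes. With 2 libraries per group this cannot decide whether libraries were prepared in pairs, and the labels do not say. The crossed pairing, added after seeing the data, called 134 higher and 326 lower. Over all acceptor junctions, 31 higher and 1 lower became 9 and 6 with limma voom, 42 and 2 with at least 20 reads, 40 and 1 with multiply mapped reads, 19 and 0 with the replicate block, and 6 to 16 higher and 0 to 1 lower without 1 library. The 1 higher and 1 lower donor junction became 0 and 0 with multiply mapped reads, with the replicate block and without any 1 library. The cause was not tested. Without 1 library, the PHGDH intron 6 share was 31.75 to 36.7% and the unannotated share difference 0.6954 to 1.275 points, against 0.5104 without PHGDH. Without 1 library, log2 changes reached both signs for PSPH (-0.63 to 0.29), SHMT1 (-0.35 to 0.56), TYMS (-0.01 to 0.03) and SRR (-1.52 to 0.07), as did the MTHFD2 intron 1 share difference (-13.17 to 3.37 points). The named MTHFD1 intron 6 and MTHFD1L intron 13 junctions fell under 10 reads without either SF3B1 K700E library and were then not tested. At PHGDH intron 6, the WT depth allows shares of up to 2.97% in replicate 1 and 4.167% in replicate 2.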
